A study of Mus musculus with 10 samples.

Results

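The nuclear genes named for subunits of mitochondrial complex I were followed in RNA from peritoneal lavage cells of septic mice, in which the cecum had been ligated and punctured. The genes are all rows of the deposited table whose symbol is Nduf followed by a, b, c, s or v and a digit, whatever their values. This gave 37 genes of 34745, which lie on 15 chromosomes. The assembly factors (Ndufaf genes) and the acyl carrier subunit gene Ndufab1 fall outside that name pattern and are described apart, and Ndufb1 was not analysed here. The labels place 5 libraries in a group named AX (6 to 10) and 5 in a group named NC (1 to 5), and the series compares amlexanox with vehicle in mice that all had the ligation and puncture, so AX is taken to mean amlexanox and NC vehicle. Amlexanox is an anti-inflammatory drug that inhibits the kinases TBK1 and IKKε. The sources used here do not give strain, sex, age, dose or time after surgery, and no library of a mouse without sepsis was analysed here. The cells are a mixture, and markers of neutrophils were detected in all 10 libraries at unequal levels. S100a8, an abundant neutrophil calcium-binding protein, lay between 1274 and 3258 CPM in AX and between 1403 and 3670 CPM in NC. Ly6g, another neutrophil marker, lay between 9.96 and 46.7 CPM in AX and between 9.59 and 48.7 CPM in NC. CPM are counts scaled to the library's total; the libraries held 10221170 to 13806885 counts.

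Complex I, NADH:ubiquinone oxidoreductase, is the entry point of electrons from NADH into the respiratory chain and pumps protons across the inner mitochondrial membrane. Its matrix arm holds the N module, which oxidises NADH, and the Q module, which reduces ubiquinone; the core subunits of both are encoded in the nucleus, while the core of the membrane arm is encoded by mitochondrial DNA. Accessory subunits surround this core and are needed for assembly and stability. In activated macrophages, complex I is a known source of reactive oxygen species through reverse electron transport, and neutrophils are known for relying mostly on glycolysis.

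Complex I transcripts were present at moderate levels in every library and lay slightly lower in AX than in NC for most genes, but no gene passed the test. All 37 genes were detected, with at least 10 counts in each library, and all 37 passed the filter on low counts. In the edgeR quasi-likelihood test over 12264 genes, 0 genes of the table had an adjusted p under 0.05 (0.0% of the genes tested), and 0 of the 37 did (adjusted p = 0.9999 for each, Benjamini-Hochberg). The fitted value was lower in AX for 29 of the 37 genes and higher for 8, a share of 78.4% below 0 against 46.4% of all genes tested. Both shares moved with the processing. That of all genes was 56.8% on total counts and 63.6% and 64.7% on log2 FPKM, where that of the complex I genes was 81.1%, 86.1% and 86.1%. The median log2 fold change, AX over NC, was -0.18 over the 37 genes and 0.02 over all genes tested. Single genes lay between -0.49 and 0.32. The standard error of a single gene had a median of 0.23 over the 37. Only Ndufb8, lower in AX, had an unadjusted p under 0.05, where 0.514% of all genes tested had one and a lower value in AX and 0.921% had one in either direction (113 genes; 193 with DESeq2, which also called 0 genes). That number of genes depended on the libraries: it was 381 without AX 6 and 433 without NC 1. The CPM values of the groups overlapped for all 37 genes, as they did for all but 12 of the genes tested (0.0978%). A doubling or halving was outside the 95% interval for all but Ndufa4l2 and Ndufb7.

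Summed over the 37 genes, the level was 1068, 1193, 1121, 1314 and 1192 CPM in AX 6 to AX 10, against 1368, 1552, 1210, 1276 and 1528 CPM in NC 1 to NC 5. The sums averaged 1178 ± 92.6 CPM in AX and 1387 ± 151 CPM in NC (SD, n = 5 each). AX 9 lay inside the NC range and the other 4 AX libraries below it, with NC 3 and NC 4 close to the AX values. In RNA from a mixture of cells, fewer cells of a type and less RNA per cell cannot be told apart. Scaled by TMM, a scaling that discounts a few dominant transcripts, the sums averaged 1202 ± 63.2 CPM in AX and 1360 ± 139 CPM in NC; scaled to counts without mitochondrially encoded genes, they averaged 1358 ± 105 CPM in AX and 1540 ± 191 CPM in NC. The AX mean was the lower under all 3 scalings, but the separation of libraries was not the same. Under TMM, AX 6, AX 7 and AX 9 lay below all NC libraries and AX 8 and AX 10 among them. Without mitochondrially encoded counts, AX 6 alone lay below all of them.

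**Figure D1:**
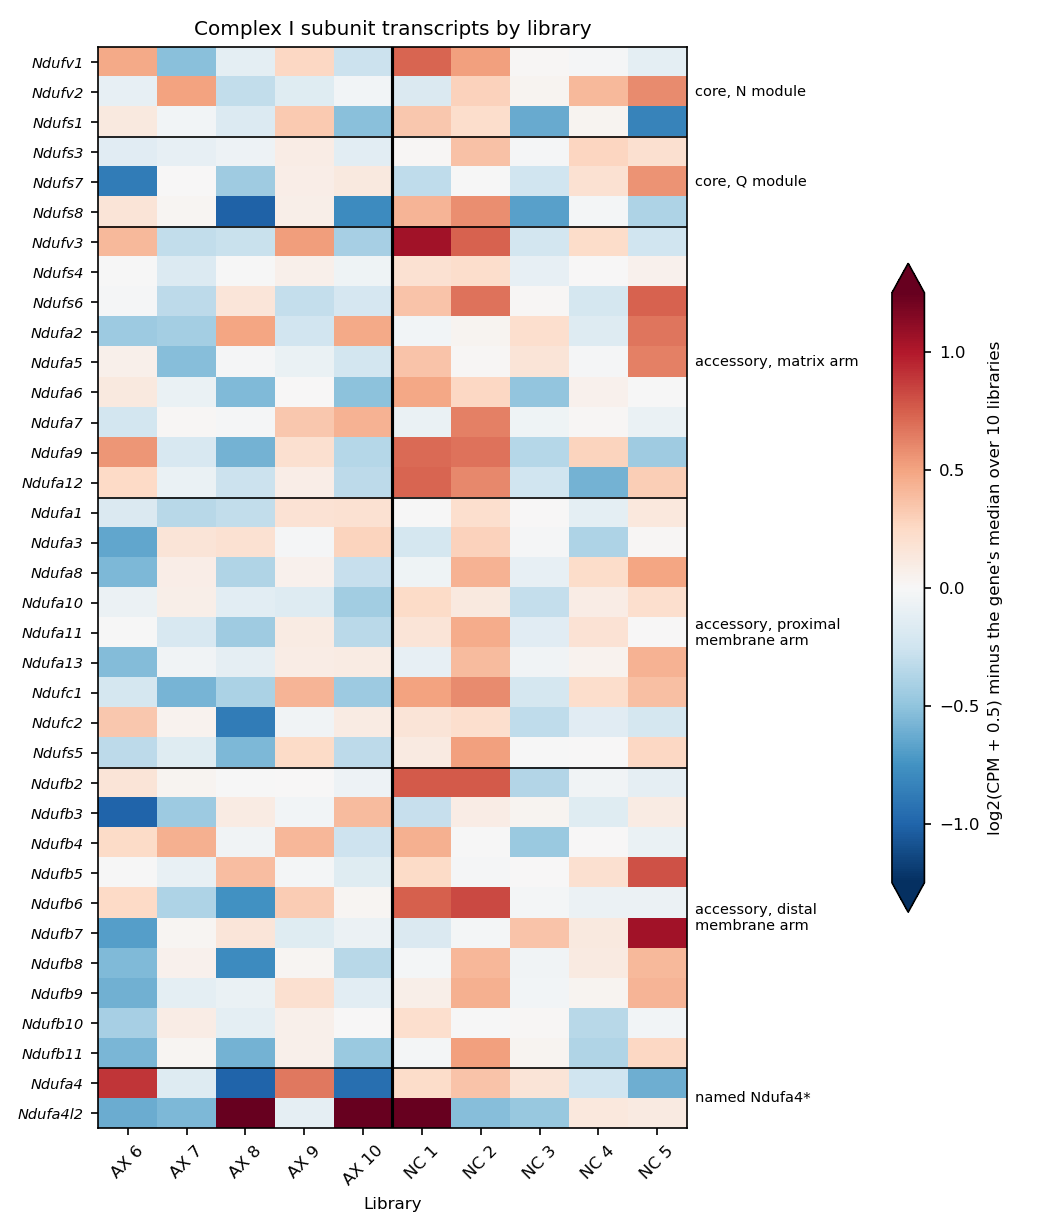
Each row is 1 of 36 of the genes and each column a library, AX on the left of the black line and NC on the right; the colour is log2(CPM + 0.5) minus the gene's median over 10 libraries, and rows are grouped by the subunit's place in the complex. Red cells are more frequent in NC 1, NC 2 and NC 5 and blue cells in AX 6 and AX 8.

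The extreme values were spread over libraries unequally, and which libraries held them depended on the scaling. On total counts, an NC library had the highest CPM for 33 of the 37 genes, namely NC 2 for 14, NC 1 for 10 and NC 5 for 9, while NC 3 and NC 4 were the highest for none. An AX library had the lowest CPM for 33 of the 37 genes, namely AX 6 for 13, AX 8 for 11, AX 7 for 6 and AX 10 for 3. Among all genes tested, the highest library was in NC for 51.7% and the lowest in AX for 66.8%, with AX 6 the lowest for 28.4% and AX 8 for 20.8%. Scaled by TMM, an NC library was the highest for 24 of the 37 genes, among them NC 5 for 13, NC 2 for 5 and NC 1 for 4. An AX library was then the lowest for 28, among them AX 6 for 9, AX 7 for 8 and AX 8 for 5. Over all genes tested these shares were 41.2% and 59.8%. Without mitochondrially encoded counts the numbers were 29 and 31 of 37, against 44.4% and 59.7% of all genes tested. The spread between libraries can be set beside that of other genes, without a test: the highest CPM was a median of 2.18 times the lowest over the 37 genes and 3.23 times over all genes tested. Among genes averaging 5 to 110 CPM, the median SD within groups was 0.33 on the log2 scale over 35 of the complex I genes and 0.47 over 7748 genes tested.

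Of the core subunits of the N module, which take electrons from NADH, 2 of 3 had lower fitted values in AX, and 0 passed the test. Their median of -0.17 rested on single libraries: it was -0.048 without AX 7, -0.071 without NC 1, -0.085 without NC 5 and -0.11 without AX 10. Ndufv1, which holds the flavin and binds NADH, stood at 34.1, 16.8, 22.3, 29.2 and 20.1 CPM in AX 6 to AX 10, against 40.7, 35.1, 24.6, 24.1 and 22.3 CPM in NC 1 to NC 5 (log2 fold change -0.17, SE 0.24; from -0.36 without AX 6 to -0.048 without AX 7). Its AX libraries split, with AX 6 and AX 9 among the NC values and AX 7 the lowest of all. Ndufv2, an iron-sulphur subunit next to Ndufv1, stood at 54.2, 82.5, 46.7, 52.3 and 56.7 CPM in AX, against 51.1, 71.3, 59.6, 77.0 and 87.9 CPM in NC (-0.21, SE 0.22; from -0.33 without AX 7 to -0.085 without NC 5). AX 7, the lowest library for Ndufv1, was the second highest of all 10 for Ndufv2. Whether these neighbouring subunits varied together over the libraries was not tested. Ndufs1, the largest subunit and the carrier of several iron-sulphur clusters, was the core gene with a higher fitted value in AX. It stood at 35.7, 32.1, 29.1, 41.4 and 22.7 CPM in AX, against 41.6, 38.4, 21.1, 33.5 and 18.1 CPM in NC (0.16, SE 0.23; from 0.031 without NC 5 to 0.25 without AX 10), with NC 3 and NC 5 lowest. The exons of Ndufs1 overlap those of Eef1b2 on the opposite strand, a translation factor gene with 340 CPM in AX, against 329 CPM in NC, and since the sources used here do not say whether counting used strand, reads of overlapping genes cannot be told apart.

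Of the core genes of the Q module, which passes electrons to ubiquinone, Ndufs3, Ndufs7 and Ndufs8 had lower fitted values in AX, between -0.23 and -0.18, and none of these passed the test. Ndufs3, a core scaffold subunit of the matrix arm, was tightly grouped, at 32.2, 32.9, 33.9, 37.9 and 32.4 CPM in AX, against 35.9, 45.8, 35.1, 42.8 and 40.8 CPM in NC (-0.18, SE 0.15). On total counts, 4 of the 5 AX libraries lay below the lowest NC library and AX 9 above NC 1 and NC 3. Scaled by TMM, only AX 7 (31.6 CPM) lay below the lowest NC library (NC 1, 31.7 CPM). Ndufs7, which carries the iron-sulphur cluster that hands electrons to ubiquinone, stood at 19.7, 36.6, 26.6, 38.6 and 39.8 CPM in AX, against 29.3, 36.5, 30.6, 41.7 and 54.1 CPM in NC (-0.23, SE 0.24; from -0.34 without NC 1 to -0.045 without NC 5). AX 6 was the lowest and NC 5 the highest library for this gene. Ndufs8, an iron-sulphur subunit of the same module, stood at 16.9, 15.3, 7.22, 15.9 and 8.53 CPM in AX, against 20.4, 22.7, 9.23, 14.8 and 11.4 CPM in NC (-0.22, SE 0.28; from -0.39 without AX 6 to -0.097 without NC 2). Both groups of Ndufs8 split into high and low libraries, so its spread within groups was larger than the gap between them. Part of Ndufs3 is shared with other genes: 39.7% of the 50-base stretches of its principal protein-coding transcript also occur in another gene of the annotation.

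**Figure D2:**
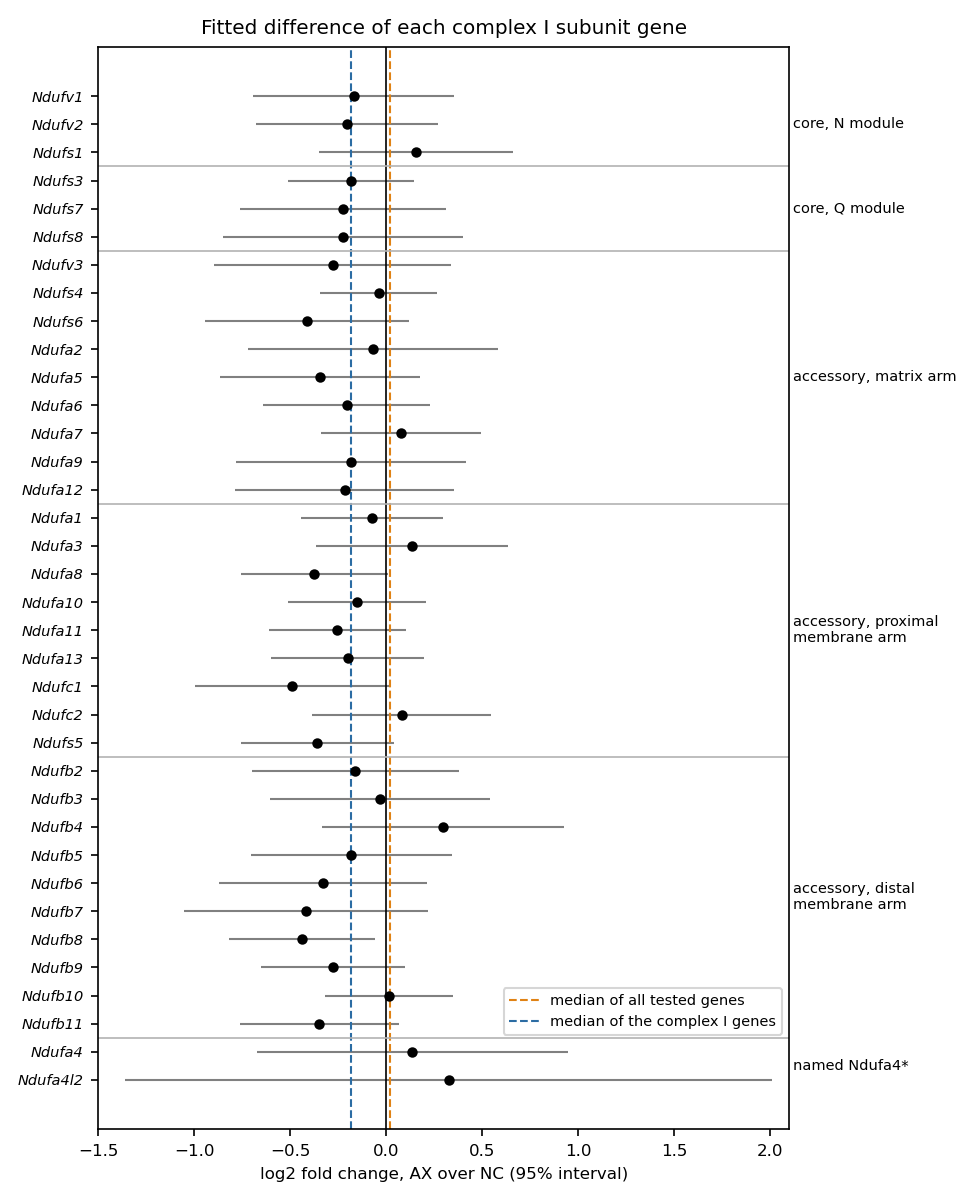
Points are fitted log2 fold changes, AX over NC, of 36 of the genes from the edgeR quasi-likelihood fit, with 95% intervals; dashed lines are the medians of the 37 complex I genes (-0.18) and of all genes tested (0.02). Most points lie left of 0 by less than their interval, and Ndufa4l2 has the widest interval, from -1.36 to 2.01.

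Among the 9 accessory genes of the matrix arm, 8 had lower fitted values in AX (median -0.21; -0.34 without AX 6 and -0.11 without NC 1), 0 of them past the test. Ndufs6, the zinc-binding subunit between the N and Q modules (ENSMUSG00000021606, chromosome 13 from 73319874 to 73328542 on the minus strand, mm10), stood at 20.2, 16.2, 22.7, 16.5 and 17.6 CPM in AX, against 26.2, 33.03, 20.7, 17.4 and 34.3 CPM in NC. On total counts, NC 1, NC 2 and NC 5 lay above all AX libraries and NC 3 and NC 4 among them. Scaled by TMM, AX 8 (26.2 CPM) lay above NC 1 (23.1 CPM). The log2 fold change of Ndufs6 was -0.41 (SE 0.24, 95% interval -0.94 to 0.12, unadjusted p = 0.116 in the edgeR fit), and -0.27 without NC 5. Ndufa2, a subunit with a thioredoxin-like fold at the N module, stood at 47.1, 48.1, 91.5, 54.7 and 90.2 CPM in AX, against 63.3, 66.2, 74.7, 57.7 and 103 CPM in NC (-0.07, SE 0.30). AX 8 and AX 10 lay above all NC libraries but NC 5 and the other 3 AX libraries below all NC libraries, and the sign of its log2 fold change turned when AX 6, AX 7, AX 9 or NC 5 was left out. The other 7 genes of this group, Ndufv3, Ndufs4, Ndufa5, Ndufa6, Ndufa7, Ndufa9 and Ndufa12, averaged 9.50 to 48.9 CPM in AX, against 11.8 to 52.8 CPM in NC, with log2 fold changes from -0.35 (Ndufa5) to 0.08 (Ndufa7). Ndufs4, a subunit whose loss causes Leigh-like disease in mice, was singled out after its values were seen as the steadiest of the 37 genes: its highest library was 1.31 times its lowest, with 44.3 to 52.5 CPM in AX and 46.5 to 58.2 CPM in NC.

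Of the 9 accessory genes of the proximal membrane arm, 7 had lower fitted values in AX (median -0.20; -0.098 without NC 5), 0 of them past the test. This group holds 9 of the 37 genes and 4 of the 8 with the smallest p. The others of those 8 are Ndufb8, Ndufb9 and Ndufb11 of the distal arm and Ndufs6 of the matrix arm. Ndufa8, a subunit with paired disulphide-bonded helices on the intermembrane side (ENSMUSG00000026895, chromosome 2 from 36036326 to 36049406, minus strand), stood at 39.1, 61.7, 44.6, 60.4 and 47.3 CPM in AX, against 55.8, 78.7, 53.9, 67.9 and 81.6 CPM in NC. On total counts, AX 6, AX 8 and AX 10 lay below all NC libraries, and AX 7 and AX 9 above NC 1 and NC 3. Scaled by TMM, AX 8 (51.6 CPM) lay above NC 1 (49.2 CPM). The log2 fold change of Ndufa8 was -0.37 (SE 0.18, 95% interval -0.76 to 0.01, unadjusted p = 0.0555 in the edgeR fit). Ndufc1, a small subunit with a single membrane helix (ENSMUSG00000037152, chromosome 3 from 51404677 to 51408988, minus strand), had the lowest fitted value of the 37 genes, at 7.20, 5.47, 6.32, 11.5 and 6.03 CPM in AX, against 12.2, 12.96, 7.19, 9.92 and 11.1 CPM in NC. AX 9 lay with the NC libraries and NC 3 with the AX libraries. The log2 fold change was -0.49 (SE 0.23, 95% interval -0.997 to 0.02, unadjusted p = 0.0567 in the edgeR fit). Ndufs5, which like Ndufa8 faces the intermembrane space (ENSMUSG00000028648, chromosome 4 from 123712710 to 123718202, minus strand), stood at 9.33, 10.6, 7.85, 14.0 and 9.31 CPM in AX, against 12.8, 17.0, 11.8, 11.8 and 14.2 CPM in NC. Except for AX 9, all AX libraries lay below the lowest NC library (log2 fold change -0.36, SE 0.18, unadjusted p = 0.0729 in the edgeR fit); 31.1% of its 50-base stretches also occur in another gene, BC002163. Ndufa11, a multi-helix membrane subunit (ENSMUSG00000002379, chromosome 17 from 56717762 to 56724248, plus strand), stood at 23.8, 20.8, 17.4, 25.7 and 18.9 CPM in AX, against 26.7, 33.2, 21.7, 27.2 and 24.0 CPM in NC (-0.25, SE 0.16). Ndufa1, a short membrane subunit needed for assembly, stood at 26.7, 23.8, 24.5, 34.5 and 34.7 CPM in AX, against 30.3, 35.3, 30.6, 27.9 and 33.3 CPM in NC (-0.07, SE 0.17; 0.004 without AX 7). The other 4 genes, Ndufa3, Ndufa10, Ndufa13 and Ndufc2, averaged 17.7 to 43.2 CPM in AX, against 16.8 to 51.4 CPM in NC, with log2 fold changes from -0.20 (Ndufa13, also known as GRIM-19) to 0.13 (Ndufa3).

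**Figure D3:**
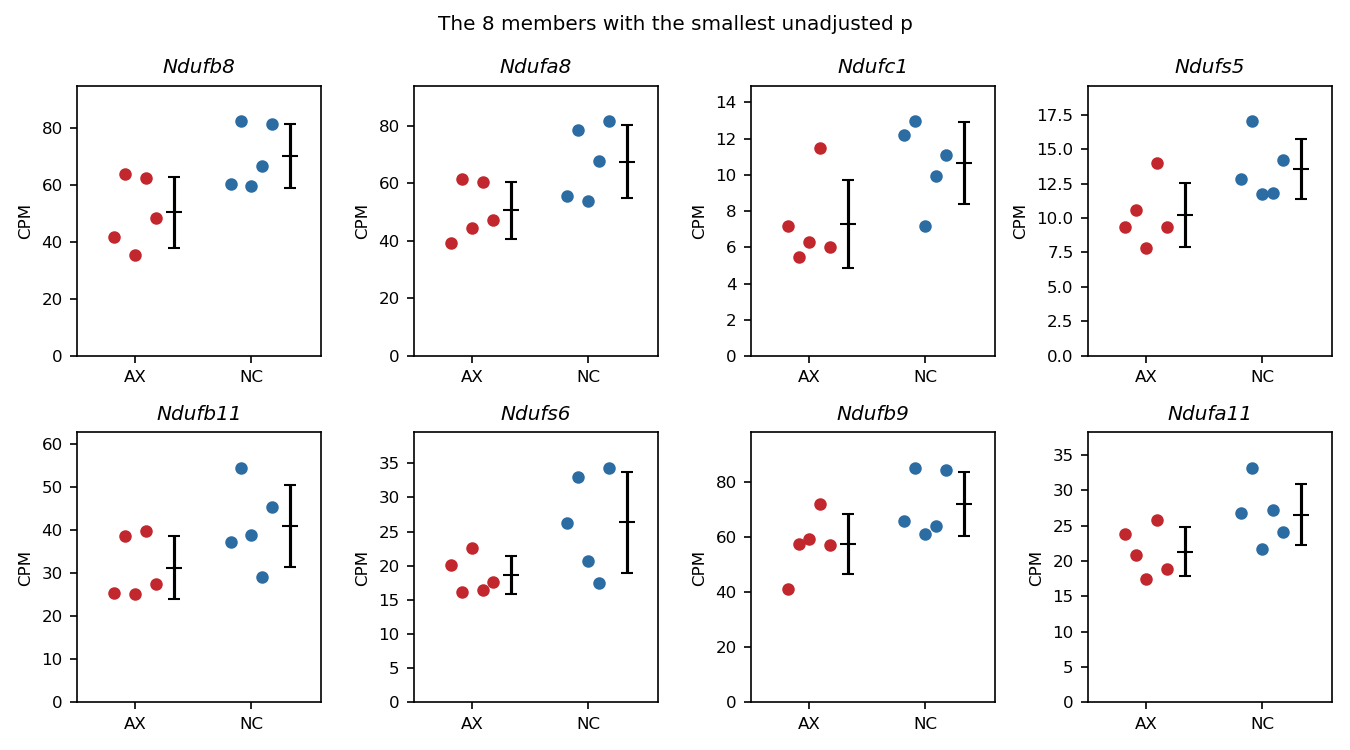
CPM of the 8 complex I genes with the smallest unadjusted p, one point a library (red AX, blue NC), with the mean and SD of each group beside its points. The AX mean is the lower in each panel, and the points of the groups overlap in each.

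Among the 10 accessory genes of the distal membrane arm, 8 had lower fitted values in AX (median -0.23) and 0 passed the test after adjustment. Ndufb8, a membrane subunit often used in blots as a readout of assembled complex I (ENSMUSG00000025204, chromosome 19 from 44548572 to 44555440, minus strand), had the smallest p of the 37 genes. It stood at 41.8, 63.8, 35.5, 62.4 and 48.3 CPM in AX, against 60.3, 82.2, 59.7, 66.5 and 81.3 CPM in NC. AX 6, AX 8 and AX 10 lay below all NC libraries, while AX 7 and AX 9 lay just above NC 1 and NC 3. The means were 50.3 ± 12.5 CPM in AX and 70.0 ± 11.1 CPM in NC (SD, n = 5 each), a ratio of 0.719. The fitted fold, which uses TMM scaling, was 0.737 (95% interval 0.566 to 0.959) with an unadjusted p of 0.027 and an adjusted p of 0.9999 in the edgeR fit. The unadjusted p was 0.0671 without AX 8, 0.056 without NC 2 and 0.0703 without NC 5, and stayed under 0.05 without any of the other 7 libraries. Ndufb9, a subunit on the matrix face of this arm, stood at 41.0, 57.4, 59.1, 71.7 and 57.0 CPM in AX, against 65.6, 85.0, 61.0, 63.9 and 84.2 CPM in NC (log2 fold change -0.28, SE 0.17). On total counts, AX 9 was the single AX library above the lowest NC library. Scaled by TMM, AX 8, AX 9 and AX 10 (68.4, 63.5 and 59.1 CPM) lay above it (NC 1, 57.9 CPM). The same AX libraries lay above the lowest NC library without mitochondrially encoded counts. Ndufb11, a membrane subunit encoded on the X chromosome, stood at 25.5, 38.7, 25.1, 39.7 and 27.5 CPM in AX, against 37.3, 54.5, 38.8, 29.1 and 45.5 CPM in NC (-0.35, SE 0.19). On total counts, AX 6, AX 8 and AX 10 were again the 3 lowest, as for Ndufa8 and Ndufb8.

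The 2 genes lowest per length belong to the distal arm. Ndufb2 stood at 7.67, 6.99, 6.77, 6.82 and 6.495 CPM in AX, against 11.9, 11.9, 5.16, 6.56 and 6.25 CPM in NC (-0.16, SE 0.25; -0.042 without NC 2 and -0.043 without NC 1). Its AX libraries were almost identical on total counts but ran from 6.04 to 8.41 CPM under TMM. NC 1 and NC 2 alone lay above them. Ndufb4 had 12 to 31 counts per library, at 1.98, 2.36, 1.53, 2.30 and 1.252 CPM in AX, against 2.35, 1.59, 1.02, 1.5996 and 1.47 CPM in NC (0.30, SE 0.29). Near-identical copies exist for Ndufb4, with 37.0% of its 50-base stretches also found in other genes, Ndufb4c among them, so its low count is uncertain. The other 5 genes, Ndufb3, Ndufb5, Ndufb6, Ndufb7 and Ndufb10, averaged 16.4 to 77.8 CPM in AX, against 21.8 to 107 CPM in NC, with log2 fold changes from -0.42 (Ndufb7) to 0.01 (Ndufb10).

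Ndufa4 and Ndufa4l2 carry complex I names, but Ndufa4 is known as a subunit of complex IV and Ndufa4l2 is its relative, a known target of the hypoxia factor HIF-1α. Both had higher fitted values in AX, with the widest spread among the 37 genes and no call. Ndufa4 stood at 65.3, 31.3, 17.2, 55.7 and 17.999 CPM in AX, against 41.0, 44.8, 39.1, 29.4 and 22.8 CPM in NC (0.14, SE 0.37). AX 6 and AX 9 were the 2 highest and AX 8 and AX 10 the 2 lowest of all libraries, so the AX group held both ends, and without AX 6 the log2 fold change was -0.23. Ndufa4l2 stood at 0.791, 0.842, 6.41, 1.33 and 4.30 CPM in AX, against 7.34, 0.869, 0.931, 1.68 and 1.65 CPM in NC (0.32, 95% interval -1.36 to 2.01; -0.33 without AX 8). NC 1, AX 8 and AX 10 stood above the other 7 libraries, all of which were under 2 CPM. Without this pair, 29 of 35 genes were lower in AX, with a median of -0.20.

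Start sites were looked at because most members lay on the same side; known motifs were sought on both strands from 250 bases before to 50 bases after each start in the RefSeq table (GRCm38.p6), which held 32 of the 37 genes. The motif of NRF1, a known activator of respiratory chain genes, occurred in 7 of the 32 (21.9%): Ndufa5, Ndufa6, Ndufa8, Ndufa11, Ndufb4, Ndufs5 and Ndufs6. It occurred in 11.5% of the 9173 tested genes in the table. Of the genes with the motif, Ndufa5, Ndufa6, Ndufa8, Ndufa11, Ndufs5 and Ndufs6 had lower fitted values in AX, from -0.41 to -0.21. Of the 8 members with the smallest p, 7 were in the RefSeq table, and 4 of these held the motif. It was held by 3 of the other 25 members there, and a link of motif and fold change was not tested. Ndufb4, with 3 matches the most of the 7, had the highest fitted value of the genes other than Ndufa4 and Ndufa4l2 (0.30), and Ndufb8, with the smallest p, held none. The motif of YY1 occurred in 4 of 32 (12.5%: Ndufa9, Ndufs4, Ndufs6 and Ndufs7), against 1.92% of tested genes. CCGGAAGT, the letters of GABPA and other ETS factors, occurred in 1 of 32 (3.12%; Ndufs3), against 9.31%. GGGCGG, the letters of SP1, occurred in 14 of 32 (43.8%), against 68.2%, and TCAAGGTCA, the letters of ERRα, in 0 of 32, against 0.294%. The window of the 32 genes had a median GC content of 58.8%, against 60.7% for the tested genes. Shown first are the 100 bases before the start of Ndufb8, the gene with the smallest p (chr19:44555443-44555542, minus strand), and of Ndufa11 (chr17:56717662-56717761, plus strand) and Ndufs5 (chr4:123718187-123718286, minus strand), which hold the NRF1 letters; capitals mark the SP1 letters, here on the other strand, in Ndufb8 and the NRF1 letters in the others.
Ndufb8: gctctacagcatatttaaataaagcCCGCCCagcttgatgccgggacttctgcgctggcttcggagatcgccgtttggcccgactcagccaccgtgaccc
Ndufa11: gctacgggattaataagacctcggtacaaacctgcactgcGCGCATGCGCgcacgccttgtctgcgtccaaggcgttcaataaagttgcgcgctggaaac
Ndufs5: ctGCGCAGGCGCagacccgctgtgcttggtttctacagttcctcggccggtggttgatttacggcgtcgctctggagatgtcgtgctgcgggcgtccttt
The NRF1 letters of Ndufa8 (chr2:36049349-36049378, minus strand) and Ndufs6 (chr13:73328479-73328508, minus strand) lie just before the start, and are shown in capitals with 10 bases on each side; the deposited span of both genes begins further upstream and includes them.
Ndufa8: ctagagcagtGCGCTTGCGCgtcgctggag
Ndufs6: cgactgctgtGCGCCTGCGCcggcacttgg
The motif ends 21 bases before the start in Ndufa8 and 7 bases before it in Ndufs6, whereas it lies 60 to 51 bases before the start in Ndufa11 and 98 to 89 bases before it in Ndufs5. These are matches of letters and say nothing of binding in these cells. The factors themselves showed no call: of 11 tested regulators of mitochondrial gene expression, Nrf1, Gabpa, Yy1 and Tfam among them, 7 had lower fitted values in AX and 0 passed the test. Their median of -0.05 changed sign without AX 6, AX 8 or NC 4. Tfam, which packages mitochondrial DNA, averaged 33.9 ± 7.82 CPM in AX and 29.0 ± 4.30 CPM in NC, and Tfb1m, a mitochondrial ribosomal RNA methyltransferase, 3.24 ± 1.07 CPM in AX and 4.27 ± 1.39 CPM in NC.

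The mitochondrially encoded subunits of the same complex did not lie on the same side. Of the 7 mt-Nd genes, 6 had higher fitted values in AX and 1 a lower one, and 0 passed the test. Their median of 0.39 was 0.20 without NC 2 or AX 10, 0.22 without AX 8, 0.59 without AX 9 and 0.69 without NC 5. The smallest interval among the 6 ran from -0.46 to 1.24 (mt-Nd4l). Counts of mt-Nd genes per count of the 37 nuclear genes stood at 27.2, 19.7, 38.6, 12.6 and 39.9 in AX 6 to AX 10, against 17.9, 7.19, 14.0, 24.6 and 26.9 in NC 1 to NC 5. AX 6, AX 8 and AX 10 lay above all NC libraries, AX 6 just above NC 5, while AX 9 lay below 4 of the 5 NC libraries and AX 7 among them. All mitochondrially encoded genes together took 13.1 ± 6.09% of counts in AX and 9.72 ± 4.44% in NC, and the part of this share in the nuclear result was not tested. In the fit without those genes, 29 of 37 were again lower with a median of -0.18. That fit cannot test this part, because the TMM scaling of both fits already discounts dominant transcripts. mt-Nd6, the gene with a lower fitted value, stood at 36.0 ± 18.5 CPM in AX, against 135 ± 166 CPM in NC (log2 fold change -1.94, unadjusted p = 0.0233 and adjusted p = 0.9999 in the edgeR fit). Its NC mean rested on NC 5 at 424 CPM and NC 3 at 127 CPM, with the other 3 NC libraries between 38.3 and 45.1 CPM. mt-Nd6 is the one mt-Nd gene encoded on the light strand, opposite other mitochondrial transcripts, so its count is uncertain without strand.

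**Figure D4:**
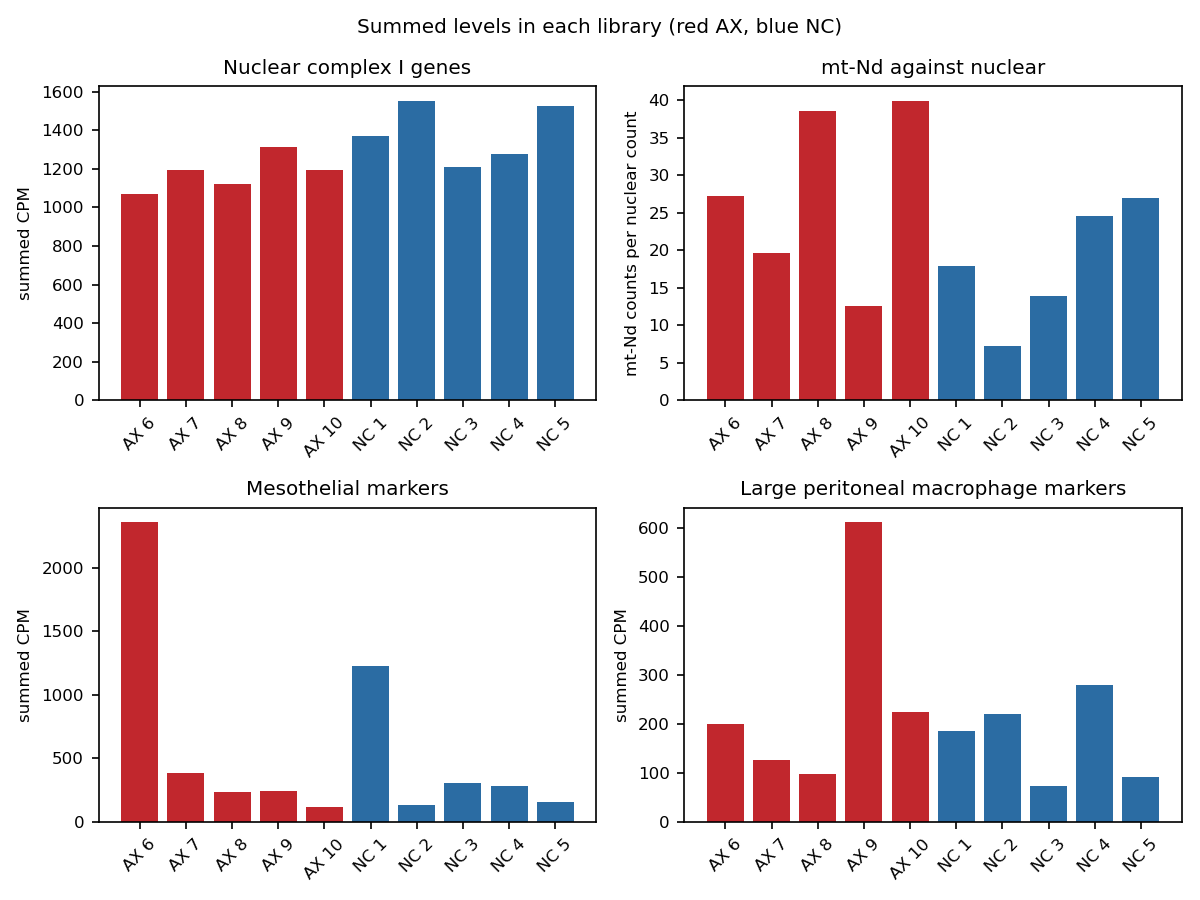
Bars give, for each library (AX on the left in red, NC on the right in blue), the summed CPM of the 37 nuclear complex I genes, mt-Nd counts per nuclear complex I count, and the summed CPM of mesothelial and of large peritoneal macrophage markers. The nuclear sums run from 1068 to 1314 CPM in AX and from 1210 to 1552 CPM in NC, and AX 6, NC 1 and AX 9 stand out in the marker panels.

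The other nuclear genes of oxidative phosphorylation lay on the same side as complex I, also without a call. Of 15 tested complex I assembly factors, 13 had lower fitted values in AX (median -0.22; -0.13 without NC 2). Ecsit, an assembly factor also known in Toll-like receptor signalling, had the lowest p of these, at 6.57 ± 2.35 CPM in AX, against 10.4 ± 2.05 CPM in NC (log2 fold change -0.62, SE 0.27, unadjusted p = 0.0437 and adjusted p = 0.9999 in the edgeR fit), and Ndufaf3 averaged 3.38 ± 1.67 CPM in AX and 4.72 ± 1.83 CPM in NC. Ndufab1, the acyl carrier subunit, averaged 10.01 ± 2.21 CPM in AX, against 10.7 ± 3.04 CPM in NC (log2 fold change -0.03). Fitted values were lower in AX for all 4 complex II genes (median -0.06), all 9 of complex III (median -0.22), 9 of 10 of complex IV (median -0.21) and all 15 of ATP synthase (median -0.13), with 0 past the test in any of these lists. Single libraries moved these medians. Without AX 6 they were 0.001, -0.36, -0.36 and -0.25 for the 4 complexes in that order. That of complex II was -0.15 without AX 8, and that of complex III was -0.095 without NC 1 and -0.14 without AX 10. The genes with the smallest p in the last 3 lists are also those with the lowest fitted values in them, and stand for the far end of each list. Uqcr11 of complex III averaged 14.5 ± 2.32 CPM in AX and 20.99 ± 4.44 CPM in NC (log2 fold change -0.47, SE 0.20, unadjusted p = 0.0361 in the edgeR fit). Cox4i1 of complex IV averaged 233 ± 41.8 CPM in AX and 328 ± 64.6 CPM in NC (-0.46, SE 0.20, unadjusted p = 0.0387 in the edgeR fit). Atp5f1 of ATP synthase averaged 190 ± 67.9 CPM in AX and 277 ± 30.8 CPM in NC (-0.51, SE 0.22, unadjusted p = 0.0404 in the edgeR fit). The adjusted p was 0.9999 for all 3. The lists were not tested against each other.

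The mixture of cells also differed between libraries. Mesothelial markers are genes of the lining of the abdominal cavity. The summed level of 10 of them ran from 114 to 2358 CPM in AX, against 132 to 1229 CPM in NC. AX 6 and NC 1 were the highest. Apart from AX 6 and NC 1, the sums ran from 114 to 386 CPM in AX and from 132 to 305 CPM in NC. The median sum over all libraries of a group was 240 CPM in AX and 280 CPM in NC. Of the 9 tested, all 9 had higher fitted values in AX (median 1.04), with 0 past the test. The sum of 12 markers of large peritoneal macrophages ran from 96.7 to 611 CPM in AX and from 74.1 to 278 CPM in NC. AX 9 was the library at 611 CPM, and the rest of AX ran from 96.7 to 224 CPM. The median sum was 199 CPM in AX and 185 CPM in NC. Of these markers, 8 of 9 tested had higher fitted values in AX (median 0.86). Vsig4 was at 0 in 6 libraries and Cd5l in 2. The sum of 12 neutrophil markers ran from 7345 to 16510 CPM in AX, against 10414 to 20526 CPM in NC, with 8 of 12 lower in AX (median -0.08). Sums of 10 markers of monocytes and small peritoneal macrophages ran from 2758 to 6436 CPM in AX and from 3286 to 6444 CPM in NC, with 5 of 9 tested lower in AX (median -0.02). Those of 7 B cell markers ran from 95.8 to 253 CPM in AX and from 69.2 to 255 CPM in NC, with 6 of 7 lower in AX (median -0.21). Those of 7 T cell markers ran from 10.1 to 20.9 CPM in AX and from 9.90 to 28.3 CPM in NC, with 4 of 6 tested lower (median -0.19). The medians of these lymphocyte lists were close to that of the complex I genes, and 0 of their genes passed the test. The part of these cells in the complex I values was not tested, apart from a fit without AX 6 and NC 1, in which 30 of 37 genes were lower in AX with a median of -0.24.

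Levels can be compared between members only per length, and the length used decided the order for some. By the deposited FPKM (counts scaled to the library's total and to kilobases of gene length), averaged over 10 libraries, the 37 genes spanned 113-fold, with Ndufa2 (122 FPKM), Ndufb9 (99.3 FPKM) and Ndufa1 (72.0 FPKM) highest and Ndufb2 (1.08 FPKM), Ndufb4 (1.22 FPKM) and Ndufa4l2 (2.72 FPKM) lowest. The gene lengths behind the FPKM ran from 419 bases for Ndufa1 to 11134 bases for Ndufs1, and for 14 of the 37 genes they were more than 2 times the length of the principal protein-coding transcript in GENCODE M21. Per kilobase of that transcript, Ndufb7 was the highest at 148 CPM per kilobase, against rank 14 by FPKM, where its length was 4864 bases in place of 623. Ndufb8 stood at rank 4 in place of 20 and Ndufa7 at rank 11 in place of 27, while Ndufa2, Ndufb9, Ndufb2 and Ndufb4 kept a rank within 1 place. In all, 7 genes moved by more than 10 ranks. The low place of Ndufb2 rests on a long length under both, 7116 bases for the FPKM and 4371 bases for the principal transcript. By CPM alone, at a mean of 6.95 in AX and 8.36 in NC, Ndufb2 lay above Ndufb4 and Ndufa4l2.

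**Figure D5:**
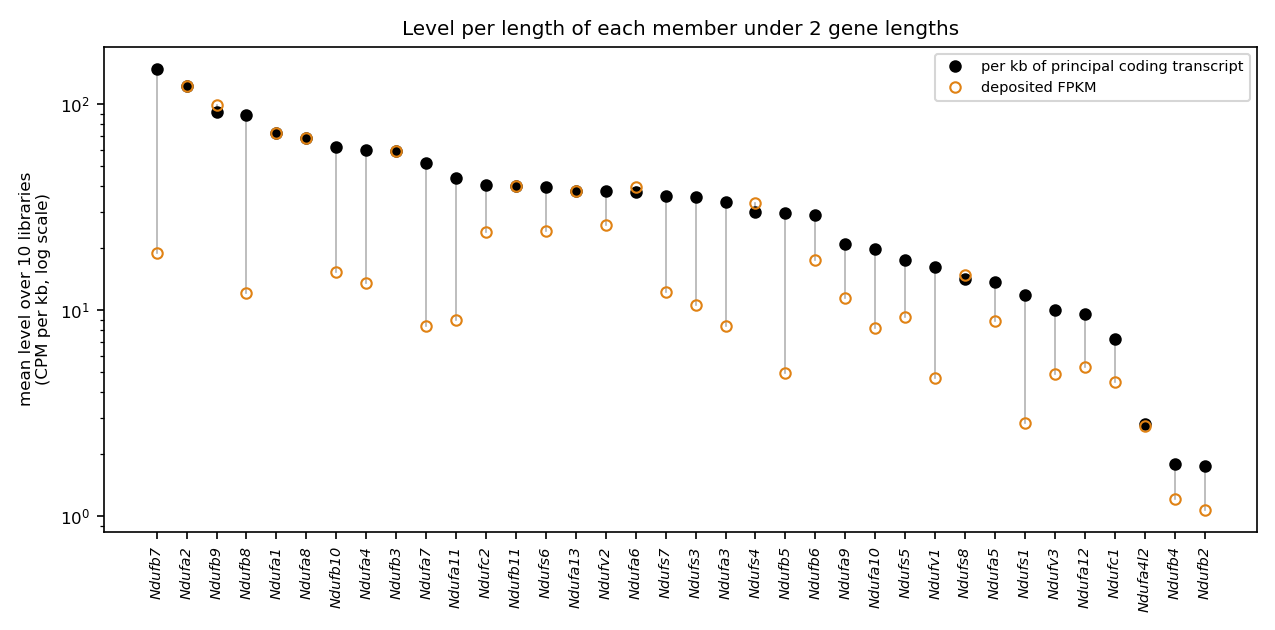
Mean level over 10 libraries of 36 of the 37 genes on a log axis, as CPM per kilobase of the principal coding transcript (filled) and as deposited FPKM (open), joined by a line. Long lines mark genes such as Ndufb7 (148 against 19.0) and Ndufb8 (88.5 against 12.1), and Ndufb4 and Ndufb2 are at the bottom on both scales.

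The counts of some members are less certain because they share sequence or position with other genes. All 37 identifiers were found in GENCODE M21, 24 with the same span. Exons of 16 members overlapped those of another gene, 3 of them on the same strand: Ndufb2 with Gm42420, Ndufb8 with Gm20538 and Ndufb9 with Gm49356. Gm20538 was at 0 CPM in all libraries but NC 5, at 0.0867 CPM. The sources used here do not say how reads shared by overlapping genes were counted, so reads missing from Ndufb8 cannot be told from these values. For 17 members no 50-base stretch of the principal coding transcript occurred in another gene, among them Ndufa8, Ndufs7, Ndufs8, Ndufv1 and Ndufv2. For 7 members over 20% of these stretches did: Ndufs3, Ndufb4, Ndufb6, Ndufs5, Ndufa13, Ndufa12 and Ndufb9. Nothing in the labels says that the libraries came from separate animals, so the p-values speak only of the spread among these libraries, which may be technical.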

How the data were processed

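Poly(A) RNA of peritoneal lavage cells was extracted and made into 10 libraries with the kits named in the labels' protocols, and the submitters' processing notes name HISAT2 2.0.4 and mm10. The sources used here do not give the counting tool, annotation release or strand setting. The authors deposited raw counts per gene, which were used for all tests, and FPKM values, which the authors scaled by gene length and library total: each equals count over length and column total within 0.00681% for the members, and they were used for levels between genes and as an alternative.

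CPM are counts over the column total. The place of a library among the others of a gene is given on these values unless another scaling is named, and it can differ under TMM. Genes kept by filterByExpr were fitted in edgeR 4.0.16 (R 4.3.3) with TMM scaling and no covariates, and the difference of AX from NC was tested by the quasi-likelihood F test (two-sided), with Benjamini-Hochberg adjustment over 12264 genes and a threshold of 0.05. The script was tested on simulated counts. Standard errors were derived from F and the fold change.

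Every member is counted. The values of 1 member are not reported here, although it enters all counts, sums and medians over the 37. Those given in full are the other 6 core subunits, the 8 with the smallest unadjusted p, the 3 highest and 3 lowest by mean FPKM, Ndufa4 and Ndufa4l2, and any with groups that do not overlap or a library 4-fold from its group's median (CPM + 0.5), of which there were 0. The members, gene lists, roles and motifs were chosen with earlier results of these data known.

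Alternatives were other scalings, leaving out mitochondrially encoded genes, no filter, a filter of 50 counts in 5 libraries, DESeq2 1.42.0, limma 3.58.1 (voom, and log2(FPKM + 1) or log2(FPKM + 0.1) for genes at 1 FPKM or more in 5 libraries), and leaving out each library. Leaving out AX 6 with NC 1, and lengths of principal (APPRIS) transcripts in GENCODE M21, were added after seeing the data. Shared sequence is the share of 50-base stretches of a gene's principal coding transcript that occur, on either strand, in transcripts of another gene of that annotation. Exons outside the principal transcript were not searched. Promoter sequences are from RefSeq (GRCm38.p6).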

Additional observations from a re-analysis of the deposited data

Results flagged for a closer look

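In 6 of 74 checks of a single library against the other 4 of its group, the highest or lowest of the 5 stood apart from the nearest by more than 0.71 of the group's range. Chance flags about 1 in 20 groups. Ndufc1 was high in AX 9, at 11.49 CPM with the next at 7.197 CPM. Ndufv2 was high in AX 7, at 82.46 CPM with the next at 56.74 CPM. Ndufb5, a membrane subunit of the distal arm, stood apart in both groups: AX 8 had 37.54 CPM with the next AX library at 28.55 CPM, and NC 5 had 50.14 CPM with the next NC library at 33.85 CPM. Ndufa7, an accessory subunit of the matrix arm, was high in NC 2, at 39.11 CPM with the next at 25.27 CPM. Ndufa4l2 was high in NC 1, at 7.338 CPM with the next at 1.68 CPM; NC 1 was also the NC library with the highest mesothelial markers, and their part in this value was not tested. Each of the 6 fell in a different library. The checks used CPM of total counts. Scaled by TMM, the gaps of Ndufc1, Ndufv2, Ndufb5 and Ndufa7 fell short of 0.71 of the range, and that of Ndufa4l2 did not. The other genes were not checked under that scaling.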

How the results depend on the processing

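Over 21 alternatives, complex I genes with a lower fitted value in AX numbered 26 to 31 with a library left out and 29 to 31 otherwise, and their median log2 fold change ran from -0.22 to -0.14 and from -0.25 (total library size only) to -0.17. The median over all genes moved between -0.07 and 0.04, and the members' median minus that one stayed between -0.24 and -0.16. Genes called over the whole table were 0 except for 1 without NC replicate 3 (0 to 1 with a library left out), and complex I genes called were 0 throughout. The share of all genes below 0 ran from 44.1% to 64.7%. Of 416 values of the 20 genes described in full, 11 changed sign, in 4 genes. Ndufa4 was -0.0202 in limma-voom, -0.0698 on log2(FPKM + 1), -0.0869 on log2(FPKM + 0.1), -0.23 without AX 6 and -0.21 without AX 6 and NC 1. Leave-one-out ranges were -0.23 to 0.31 for Ndufa4, -0.27 to 0.11 for Ndufa2, -0.16 to 0.00361 for Ndufa1 and -0.33 to 1.16 for Ndufa4l2. Ndufa2 was 0.0185 without AX 6, 0.0439 without AX 7, 0.033 without AX 9 and 0.11 without NC 5, Ndufa1 0.00361 without AX 7 and Ndufa4l2 -0.33 without AX 8; the cause was not tested. Unadjusted p-values under 0.05 were found for 0 to 4 members, the 4 (Ndufa8, Ndufb8, Ndufc1 and Ndufs5) with DESeq2. Over all genes they numbered 99 to 433 with a library left out, 313 with no filter, 193 with DESeq2 and 319 without AX 6 and NC 1. The median of the regulators changed sign without AX 6, AX 8 or NC 4 and without AX 6 and NC 1, and Ndufab1 under 5 alternatives. Between 35 and 37 members could be tested. Depth limits Ndufb4 and Ndufa4l2 most, at 10 to 75 counts. No paired analysis was possible because AX and NC share no replicate numbers.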
